A study of Mus musculus with 18 samples.

Results

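Pla2g5, Trpc6, Pdpn, Fbxo2, Scrg1, Nrsn1 and Ccbe1 are 7 genes taken as named by the study among those higher in CD11b-sorted striatal cells of Q175 mice. The count table holds 55536 genes. The running text of the paper names Pla2g5, Trpc6, Pdpn, Fbxo2 and Scrg1, and does not mention Nrsn1 or Ccbe1. The 7 genes were chosen on the Q175 against WT values of these same samples, so that contrast is given here as a description without a test. All 7 were found by symbol among the Ensembl identifiers of GENCODE M21, and each had a count in at least 1 sample of every group. The first question is which markers of other cell types (astrocytes, neurons, oligodendrocytes, choroid plexus) each gene followed once genotype means were taken out, with all genotypes pooled. The other is whether the 7 genes differed in a contrast that did not choose them.

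Microglia were enriched with CD11b magnetic beads from the striatum of adult C57BL/6 mice (C57Bl6/J in the methods) in 4 genotypes: WT (n = 5), Tyrobp-KO (n = 3), Q175 (n = 5) and Q175;Tyrobp-KO (n = 5). Q175 mice carry 1 allele in which exon 1 of human HTT with an expanded CAG repeat was knocked into the mouse gene, a model of Huntington's disease that expresses the mutant protein in all cells and not in microglia alone. Tyrobp-KO mice lack, in every tissue, the adaptor that couples several microglial surface receptors to SYK. The paper calls the sorted mice adult, and their age in months was not given in the sources used here. The labels describe 2 striata per sample where the methods describe 1. CD11b is also carried by other myeloid cells, and beads do not remove free RNA or cells that adhere to microglia. Females made up 1 of 5 WT, 2 of 3 Tyrobp-KO, 4 of 5 Q175 and 2 of 5 Q175;Tyrobp-KO samples. Total counts lay between 11260410 and 29771983, and normalized Tyrobp counts lay between 176 and 410 in the 8 samples of both knockout genotypes against 3650 to 8130 in the other 10.

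The 7 genes have different roles. Pla2g5 encodes a secreted calcium-dependent phospholipase A2, Trpc6 a cation channel opened by diacylglycerol, and Pdpn the mucin-type membrane glycoprotein podoplanin, a ligand of the platelet receptor CLEC-2. Fbxo2 encodes an F-box protein of SCF ubiquitin ligases that binds high-mannose glycans and is enriched in brain. Scrg1 encodes a small secreted protein first found in scrapie-infected brain, Nrsn1 the neuronal vesicle membrane protein neurensin-1, and Ccbe1 a secreted protein required for the proteolytic activation of VEGF-C in lymphatic development. None of the 7 is a classical marker of microglia. In sorted cells a transcript can come from the sorted cells, from other cells that were co-purified, or from RNA set free during dissociation.

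On GRCm38, Pla2g5 spans chr4:138799244-138863482 (minus strand), Pdpn chr4:143267431-143299564 (minus strand) and Fbxo2 chr4:148160621-148166424 (plus strand). Trpc6 spans chr9:8544142-8680741 (plus strand), Scrg1 chr8:57455923-57477585 (plus strand) and Nrsn1 chr13:25252040-25270502 (minus strand). Values were counted over all exons of a gene, and the exons of these 6 genes overlapped those of no other annotated gene. The summed exonic length ran from 700 bases for Scrg1 to 5066 bases for Trpc6 and 10831 bases for Ccbe1.

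Upstream sequence is shown for Pdpn, which had a called slope on astrocyte and not on neuronal markers when both were in one fit, for Trpc6, which had the reverse, and for Pla2g5, the only gene with a promoter entry that held the PU.1 core. RefSeq promoters on GRCm38.p6 were found for 5 of the 7 genes, with 6 start sites. Each sequence below is the 250 bases before the RefSeq start, 5′ to 3′ on the strand of the gene. Capitals mark matches on either strand to GAGGAA (the core bound by PU.1, the myeloid master factor), TTGGC (a half-site of NFI, which acts in astrocytes), ACAAT (the SOX core) or TTCAGCACC (a half-site of REST, the repressor of neuronal genes). No 2 of these motifs overlap in the sequences printed.
Pdpn, chr4:143299565-143299814, minus strand: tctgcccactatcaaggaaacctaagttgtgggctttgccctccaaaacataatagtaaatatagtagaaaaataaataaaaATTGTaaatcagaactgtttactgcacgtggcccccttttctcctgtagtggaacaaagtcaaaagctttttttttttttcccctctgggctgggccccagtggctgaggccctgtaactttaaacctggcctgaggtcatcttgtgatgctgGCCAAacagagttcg
Trpc6, chr9:8543892-8544141, plus strand: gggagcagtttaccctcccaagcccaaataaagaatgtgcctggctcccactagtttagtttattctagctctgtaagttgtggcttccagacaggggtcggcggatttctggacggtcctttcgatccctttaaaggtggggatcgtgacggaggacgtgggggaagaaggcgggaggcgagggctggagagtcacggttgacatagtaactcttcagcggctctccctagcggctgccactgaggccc
Pla2g5 distal start, chr4:138863470-138863719, minus strand: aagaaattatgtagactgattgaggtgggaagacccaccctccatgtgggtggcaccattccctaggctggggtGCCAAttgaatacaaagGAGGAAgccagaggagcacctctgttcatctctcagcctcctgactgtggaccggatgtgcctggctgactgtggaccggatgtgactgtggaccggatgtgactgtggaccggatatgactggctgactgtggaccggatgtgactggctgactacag

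Among the 6 start sites, 1 held the PU.1 core, 3 the NFI half-site, 1 the SOX core and 0 the REST half-site. Among all 32851 promoter windows of the same length the shares were 23.3%, 41.5%, 27.7% and 0.301%. The Pdpn window held an NFI half-site starting 15 bases before the start and a SOX core 168 bases before it. The Pla2g5 window held an NFI half-site 176 bases and a PU.1 core 159 bases before the start. The Trpc6 window held none of the 4 motifs. These matches describe letters in a window and show no binding.

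Levels per kb of exon, on the scale of normalized counts, set the genes apart in WT. Fbxo2 (82.8 ± 29.6, SD, n = 5), Nrsn1 (65.0 ± 14.4) and Scrg1 (36.8 ± 18.8) were highest. Pdpn (4.09 ± 1.74), Trpc6 (3.33 ± 1.63), Pla2g5 (0.845 ± 0.897) and Ccbe1 (0.0779 ± 0.0781) followed. The ranges of 1 SD around the means of neighbours in this order overlapped at every step but that from Scrg1 to Pdpn. In Q175 the order was Nrsn1 (403 ± 468), Fbxo2 (257 ± 201), Scrg1 (221 ± 229), Pdpn (19.1 ± 14.7), Trpc6 (16.4 ± 16.7), Pla2g5 (7.72 ± 7.10) and Ccbe1 (1.69 ± 1.97). The Q175 spreads were large beside their means, and the ranges of 1 SD overlapped for every pair of neighbours in that order.

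**Figure D1:**
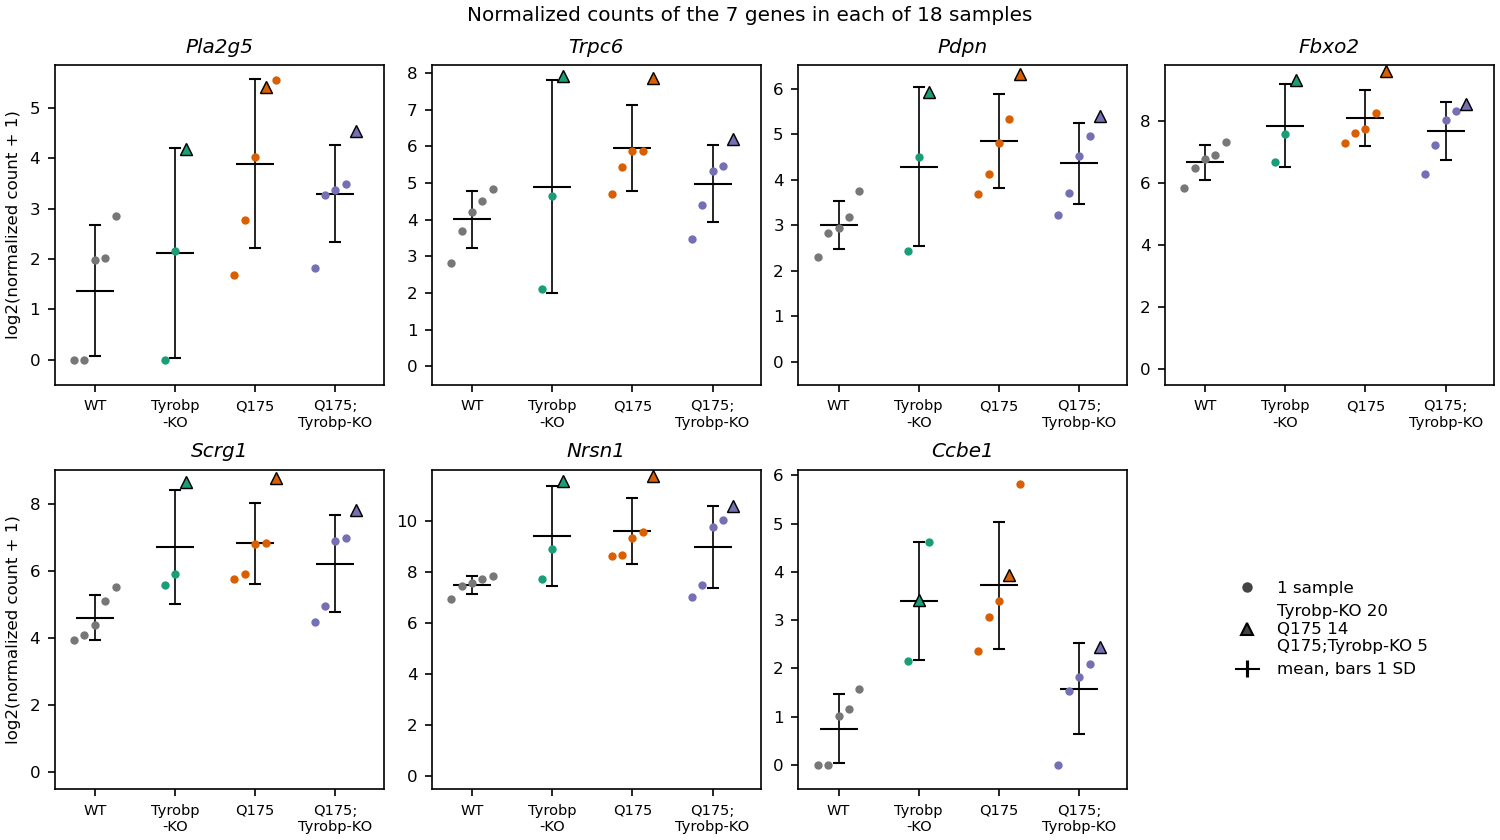
Normalized counts of the 7 genes in each of 18 samples, on an axis of log2(normalized count + 1), by genotype. Horizontal marks are group means with bars of 1 SD, and triangles are Tyrobp-KO 20, Q175 14 and Q175;Tyrobp-KO 5, which are the highest library of their group for Trpc6, Pdpn, Fbxo2, Scrg1 and Nrsn1.

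The normalized count of a sample is its count divided by its effective library size and multiplied by the mean effective library size of the 18 samples. Nrsn1 had 225, 170.3, 186, 207 and 120.0 normalized counts in WT 1, 2, 6, 7 and 8, and 757, 386, 404, 3455 and 637 in Q175 3, 4, 9, 14 and 17. In Tyrobp-KO 15, 19 and 20 it had 211, 469 and 2982, and in Q175;Tyrobp-KO 5, 11, 12, 13 and 16 it had 1536, 176, 127, 855 and 1039. The WT and Q175 values of Nrsn1 did not overlap, which the selection of the gene on this contrast favours and from which nothing is read. The 3 highest libraries came from 3 different genotypes, and 1 of them was a Tyrobp-KO sample without the Q175 allele. The highest Q175 value was over 4 times the next.

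Scrg1 had 45.1, 19.9, 14.2, 33.4 and 16.1 normalized counts in the WT samples, in the same order of replicates, and 113, 59.3, 53.4, 438 and 111 in the Q175 samples. It had 46.8, 58.6 and 403 in Tyrobp-KO and 225, 21.1, 29.8, 118 and 124 in Q175;Tyrobp-KO. The same 3 libraries stood highest, and Q175;Tyrobp-KO 11 and 12 lay within the WT range.

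Fbxo2 had 109.8, 88.2, 159, 119 and 56.5 normalized counts in WT and 306, 196, 155, 785 and 215 in Q175. It had 101, 189.5 and 646 in Tyrobp-KO and 378, 77.5, 149, 318 and 261 in Q175;Tyrobp-KO. Q175 9 lay below WT 6, so the WT and Q175 groups overlapped.

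Trpc6 had 21.6, 17.4, 27.4, 12.03 and 6.05 normalized counts in WT and 57.2, 57.6, 42.3, 233 and 24.8 in Q175. It had 3.34, 24.1 and 240.0 in Tyrobp-KO and 72.6, 10.1, 20.3, 38.9 and 43.4 in Q175;Tyrobp-KO. Its highest and its lowest value were both in Tyrobp-KO, and Q175 17 lay within the WT range.

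Pdpn had 3.92, 12.4, 6.09, 6.68 and 8.07 normalized counts in WT and 39.5, 27.1, 11.9, 78.7 and 16.5 in Q175. It had 4.46, 21.5 and 59.7 in Tyrobp-KO and 41.3, 8.42, 12.1, 30.3 and 22.1 in Q175;Tyrobp-KO. Q175 9 lay just below WT 2, and 3 of the 4 genotypes reached values over 40.

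Pla2g5 had 2.94, 6.21, 0, 0 and 3.02 normalized counts in WT and 46.3, 15.2, 2.22, 41.8 and 5.79 in Q175. It had 0, 3.45 and 17.1 in Tyrobp-KO and 22.3, 9.27, 2.54, 8.65 and 10.3 in Q175;Tyrobp-KO. Its raw counts were 0 to 35 per library, and Q175 9 and 17 lay within the WT range. A library at 0 allows up to 3 counts, and such limits cover counting error only, since amplified reads without molecular identifiers are not independent molecules.

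Ccbe1 had 1.96, 1.24, 1.02, 0 and 0 normalized counts in WT and 9.53, 55.9, 7.41, 14.3 and 4.14 in Q175. It had 23.4, 3.45 and 9.75 in Tyrobp-KO and 4.47, 2.53, 1.90, 3.24 and 0 in Q175;Tyrobp-KO. The WT and Q175 values did not overlap, which the selection of the gene on this contrast favours and from which nothing is read. Unlike for the other genes, the highest Q175 library for Ccbe1 was Q175 4 and the highest Tyrobp-KO library was Tyrobp-KO 15. Its raw counts were 0 to 33 per library. Ccbe1 shares exon sequence with an antisense gene, Gm15958, which had 2 counts in Q175 4 and 3 in Q175 17 and 0 in the other 16 libraries, and the methods describe libraries that do not keep the strand.

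Q175 against WT gave log2 fold changes of 1.59 ± 0.44 (SE) for Fbxo2, 2.17 ± 0.57 for Pdpn, 2.24 ± 0.61 for Trpc6, 2.55 ± 0.59 for Scrg1, 2.59 ± 0.57 for Nrsn1, 3.07 ± 0.97 for Pla2g5 and 4.14 ± 0.98 for Ccbe1. All 7 were higher, as their selection fixes, with a median of 2.55 beside -0.05 over the 18266 genes tested. In that contrast edgeR called 0 genes (0% of those tested), with 1124 at an unadjusted p under 0.05. DESeq2, the tool the study names, called 234 (1.28%). The 7 genes are among them, which their selection by the study on these samples fixes and from which nothing is read. Without Q175 14 the values fell for the genes that library tops, to 1.54 for Nrsn1, 1.66 for Scrg1, 1.61 for Pdpn, 1.37 for Trpc6 and 0.98 for Fbxo2, and the median over the 7 to 1.61. The log2 fold changes of Pla2g5 and Ccbe1 depend on the prior count, because several WT libraries were at 0 to 3 counts.

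Whether the 7 genes also differed by the Q175 allele where Tyrobp was absent was asked with Q175;Tyrobp-KO against Tyrobp-KO, samples that their selection did not use. None of the 7 was called by edgeR's quasi-likelihood test, which called 0 of 17723 genes (0%) at an FDR of 0.1, with 2274 at an unadjusted p under 0.05. DESeq2 called 680 genes (4.65% of those given an adjusted p) and 0 of the 7, of which Pla2g5, Pdpn and Ccbe1 were given none. Only Pla2g5 had a positive log2 fold change, 0.66 ± 1.003 (SE). The others were negative, from -0.30 ± 0.77 for Pdpn and -0.38 ± 0.65 for Fbxo2 to -0.69 ± 0.98 for Nrsn1, -0.70 ± 0.90 for Scrg1, -1.26 ± 1.03 for Trpc6 and -2.29 ± 0.84 for Ccbe1.

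The median over the 7 genes was -0.69, beside 0.03 over all genes tested. Ccbe1 was nearest to the threshold, with an unadjusted p of 0.0233 and an adjusted p of 0.338 (edgeR, Benjamini-Hochberg), a range of 0.229 to 0.982 over 18 alternatives. Only Tyrobp-KO 15 brought Ccbe1 to the 1 CPM needed to enter this fit. That sample is in the group where Ccbe1 is high, so nothing is read from its p. Pla2g5 entered only through Q175;Tyrobp-KO 5, its highest sample in this contrast. The Tyrobp-KO mean of Ccbe1 (12.2 normalized counts) is raised by Tyrobp-KO 15 (23.4), and Tyrobp-KO 19 (3.45) lay below Q175;Tyrobp-KO 5 (4.47). Nothing is therefore read from the place of the Q175;Tyrobp-KO samples below that mean. The SE of the other 6 differences were 0.65 to 1.03, so these tests do not show that the genes were alike in both genotypes. Without Tyrobp-KO 20 the signs of Trpc6, Pdpn, Fbxo2, Scrg1 and Nrsn1 turned, to 1.43, 0.81, 0.75, 1.02 and 1.19, and none was called.

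Tyrobp-KO against WT shares WT with the contrast that chose the genes, and Q175;Tyrobp-KO against Q175 shares Q175, so their values are only set beside it. In Tyrobp-KO against WT, Pla2g5 did not reach 1 CPM in any of the 8 samples and was not tested. The log2 fold changes of the other 6 were 1.53 for Fbxo2, 1.91 for Pdpn, 2.37 for Trpc6, 2.70 for Scrg1, 2.74 for Nrsn1 and 3.59 for Ccbe1. Without Tyrobp-KO 20 those of Fbxo2, Pdpn, Scrg1 and Nrsn1 were 0.41 to 1.001, that of Trpc6 was -0.32, and that of Ccbe1 was 3.70. In Q175;Tyrobp-KO against Q175 all 7 were negative, from -0.46 for Fbxo2 to -1.14 for Trpc6 and -2.88 for Ccbe1. Without Q175 14 the values of Fbxo2, Scrg1 and Nrsn1 turned positive, to 0.15, 0.34 and 0.50, and the median over the 7 went from -0.59 to -0.01.

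Marker levels describe the other cell types in the samples. A level is the geometric mean of normalized counts plus 1 over the markers of a list, and none of the 7 genes is in a list. All 15 microglial markers exceeded 100 normalized counts in every sample, with levels of 8615 to 22174. Astrocyte markers (15, among them Aqp4, Gfap and Aldoc) were above 0 in every sample, with levels of 332 to 600 in WT, 382 to 2049 in Tyrobp-KO, 750.3 to 2467 in Q175 and 377 to 1684 in Q175;Tyrobp-KO. Neuronal markers (12, among them Snap25 and Map2) were also above 0 throughout, with levels of 283 to 592 in WT, 386 to 1027 in Tyrobp-KO, 502 to 1162 in Q175 and 355 to 908 in Q175;Tyrobp-KO. In bulk samples a larger number of such cells and more of their RNA per library cannot be told apart.

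Oligodendrocyte levels (10 markers) were 1588 to 6891 over all 18 samples. Choroid plexus markers (10, among them Ttr) were low outside 3 libraries: the log2 level was 8.05 in Q175 3, 8.49 in Q175 4 and 6.46 in Q175;Tyrobp-KO 11, and 1.64 to 3.89 in the other 15. Otx2 was at 0 in all 3 Tyrobp-KO samples, and 4 of the 10 were at 0 in at least 1 Q175 sample. Levels of 3 further lists, of 8 markers each, were also low. They were 4.37 to 17.4 for ependymal, 7.26 to 33.6 for fibroblast and 7.96 to 43.1 for border macrophage markers. Of the 8 ependymal markers 4 were at 0 in at least 1 WT sample. The astrocyte level did not overlap between WT and Q175, and its part in the Q175 difference of the 7 genes was not tested.

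The 3 libraries highest in their group for the astrocyte level, Tyrobp-KO 20, Q175 14 and Q175;Tyrobp-KO 5, were also highest for the pan-neuronal level. Of the 7 genes, Tyrobp-KO 20 was highest in its group for 6, Q175 14 for 5 and Q175;Tyrobp-KO 5 for 7. All 3 are female, and their total counts (16424116 to 18722725) lie inside the range of the others. The slopes on these 2 levels, the joint fit, the correlations and the partner slopes below are therefore also given without them. The marker slopes and the most similar genes were computed on all 18 samples.

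**Figure D2:**
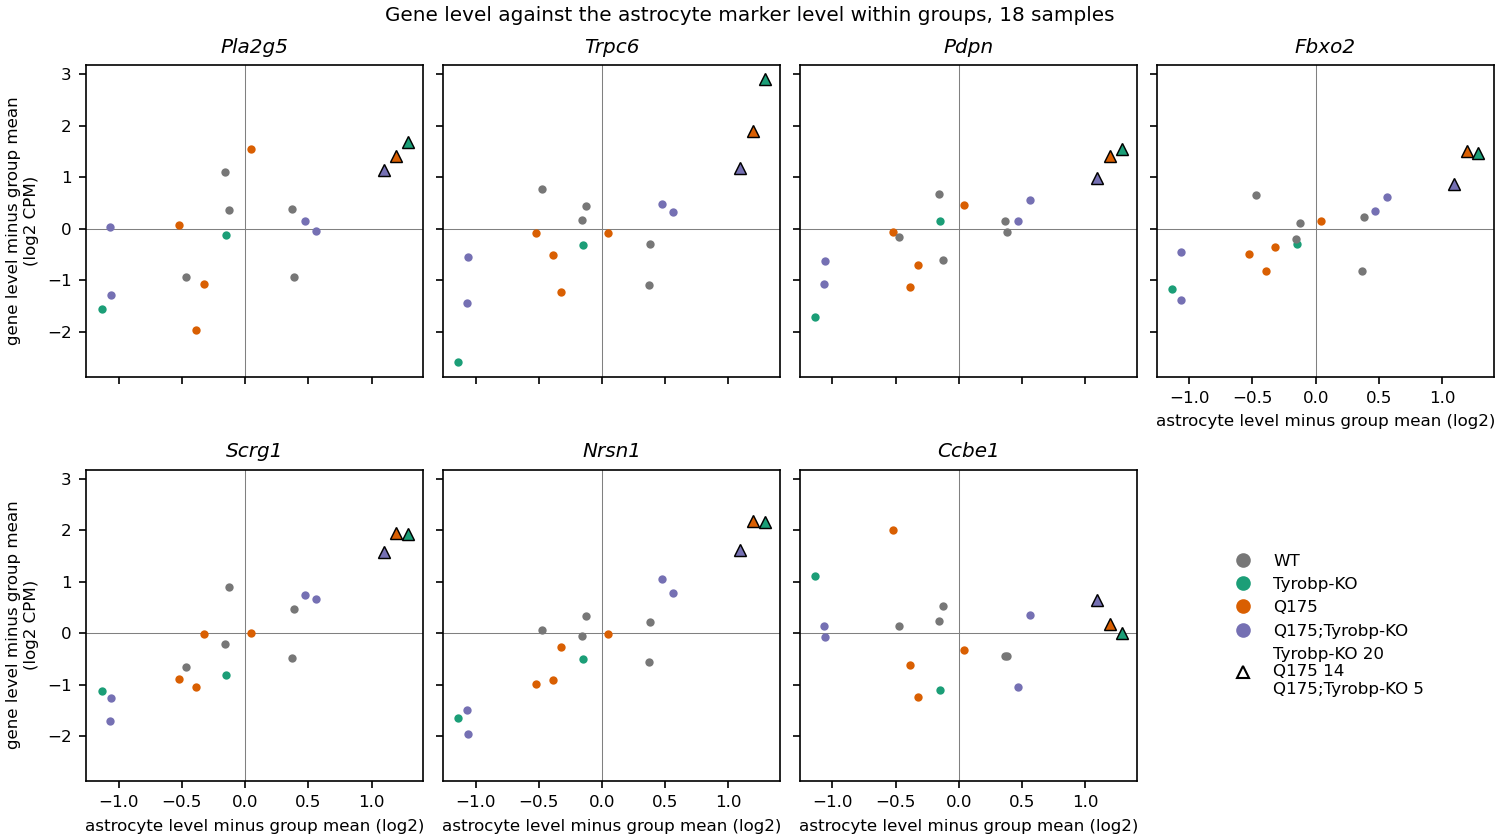
Level of each gene (log2 CPM) against the astrocyte marker level (log2), both as the difference from the group mean, in 18 samples. Triangles are Tyrobp-KO 20, Q175 14 and Q175;Tyrobp-KO 5, which hold the upper right of each panel but that of Ccbe1. Over the other 15 samples, scaled and centred again without the triangles, Pearson r was 0.84 for Nrsn1 and 0.78 for Scrg1. The adjusted permutation p values were 0.425 and 0.395.

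Within genotypes, 6 of the 7 genes followed the astrocyte level and Ccbe1 did not. In an edgeR fit over 18 samples with genotype as a term, a positive slope on the astrocyte level was called for Nrsn1, Scrg1, Fbxo2, Pdpn, Trpc6 and Pla2g5, where 7.32% of 18613 genes were called. Slopes, in log2 units of the gene per log2 unit of the level, were 1.55 ± 0.14 (SE) for Nrsn1, 1.40 ± 0.15 for Scrg1, 1.37 ± 0.26 for Trpc6, 1.15 ± 0.39 for Pla2g5, 1.09 ± 0.19 for Pdpn and 0.92 ± 0.15 for Fbxo2. Adjusted p values over all genes ran from 7.39e-07 for Nrsn1 to 0.0968 for Pla2g5. The slope of Ccbe1 was -0.33 ± 0.39 (adjusted p = 0.733). The median over the 7 was 1.15, beside -0.03 over all genes.

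Leaving out all 3 high libraries kept the sign of these 6 slopes, at 0.65 to 1.33, and ended the call of each but Nrsn1 (1.33, adjusted p = 0.0127, edgeR). The number of genes called among all genes then also fell, from 1362 to 178. The call of Pla2g5 was lost in most alternatives, with adjusted p values of 0.0341 to 0.585, among them sex as a term (0.342).

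Pan-neuronal markers were followed by 5 of the 7, where 16.3% of all genes were called. Slopes were 2.48 ± 0.30 (SE) for Trpc6, 2.09 ± 0.31 for Nrsn1, 1.97 ± 0.32 for Scrg1, 1.55 ± 0.20 for Fbxo2 and 1.38 ± 0.36 for Pdpn, with adjusted p values (edgeR) of 2.41e-05 to 0.0115. Pla2g5 (1.21 ± 0.63, adjusted p = 0.169) and Ccbe1 (-0.06 ± 0.71, adjusted p = 0.957) were not called. Without the 3 high libraries none of the 7 was called. The slopes of Trpc6 (2.38) and Fbxo2 (1.56) were close to those with all samples, at adjusted p values of 0.128 and 0.122, and that of Pla2g5 was -0.88.

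No gene of the 7 had a called slope on the oligodendrocyte level, where 0.838% of all genes were called, or on the choroid plexus level, where 0.177% were. Slopes on the oligodendrocyte level lay between -0.61 and 0.81 with SE of 0.52 to 0.96. On the choroid plexus level Ccbe1 had the largest slope, 0.33 ± 0.15, and the other 6 lay between -0.26 and 0.16.

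The astrocyte and pan-neuronal levels were themselves correlated within groups (Pearson r = 0.73 over 18 samples), so both were also put in one fit with the other 2 levels. In that fit the astrocyte slope was called for Nrsn1 (1.03 ± 0.19), Pdpn (1.01 ± 0.35) and Scrg1 (0.89 ± 0.26), where 12.1% of all genes were called. The pan-neuronal slope was called for Trpc6 (2.09 ± 0.52), Fbxo2 (1.06 ± 0.31), Nrsn1 (0.98 ± 0.32), Scrg1 (0.95 ± 0.42) and Ccbe1 (2.87 ± 1.30), where 20.7% were. Pdpn kept the astrocyte call and had a pan-neuronal slope of 0.32 ± 0.56 (adjusted p = 0.676, edgeR). Trpc6 and Fbxo2 had the pan-neuronal call and astrocyte slopes of 0.44 ± 0.33 (adjusted p = 0.371) and 0.45 ± 0.19 (adjusted p = 0.126). Nrsn1 and Scrg1 were called on both. Without the 3 high libraries the astrocyte slope was called for Nrsn1 alone (1.03 ± 0.21, adjusted p = 0.028, edgeR) among the 7, with 1545 genes called in all. Those of Pdpn (0.98 ± 0.43, adjusted p = 0.154) and Scrg1 (0.87 ± 0.31, adjusted p = 0.104) were not called. The pan-neuronal slope was then called for Trpc6 (2.43 ± 0.81), Fbxo2 (1.66 ± 0.48) and Nrsn1 (1.36 ± 0.48), with 1318 genes called in all. Counts of genes called over those 15 samples are given without the share of genes fitted, so the calls among the 7 are not set against a background rate. Astrocyte and pan-neuronal levels had r = 0.21 over those 15 samples. The 4 levels take 4 of the few degrees of freedom of 18 samples, and the Ccbe1 slope changed sign between the single and the joint fit.

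**Figure D3:**
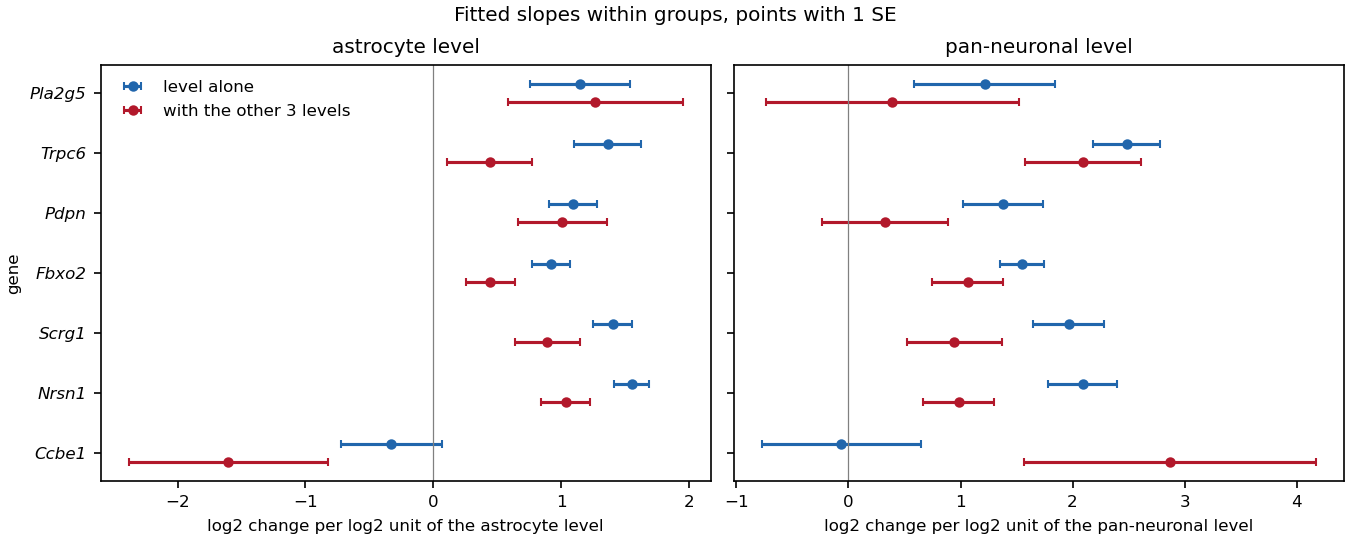
Fitted slopes of the 7 genes on the astrocyte level (left) and the pan-neuronal level (right), in log2 units of the gene per log2 unit of the level, with bars of 1 SE, over 18 samples with genotype as a term. Blue points have the level alone and red points have all 4 levels in the fit: the red astrocyte points of Trpc6 and Fbxo2 and the red pan-neuronal point of Pdpn lie closer to 0 than the blue ones.

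Pearson r of log2 CPM with the level, after taking out the group mean, was computed for the 7 genes and 13 marker lists, which is 91 relations, with 2-sided permutation tests (100000 permutations within groups) and Benjamini-Hochberg adjustment over the 91. An adjusted p under 0.1 was reached by 17 of them. The highest list was astrocyte for Nrsn1, Scrg1, Pdpn and Pla2g5 and pan-neuronal for Fbxo2 and Trpc6. It was the same list in all 18 fits that leave out 1 sample for Nrsn1, Scrg1, Pdpn and Trpc6, and in 16 of 18 for Fbxo2 and Pla2g5. The 6 genes other than Ccbe1 passed with the astrocyte level and 5 of them with the pan-neuronal level. The remaining passes were those of Trpc6 and Fbxo2 with medium spiny neuron markers, Trpc6 with endothelial markers, Trpc6 (r = 0.55, adjusted permutation p = 0.0446) and Pdpn (r = 0.67, adjusted permutation p = 0.0285) with ependymal markers, and Ccbe1 with microglial markers. When the 3 high libraries were left out 3 relations passed, those of Trpc6 with pan-neuronal and medium spiny neuron markers (r = 0.71, adjusted permutation p = 0.0728, for the latter) and that of Ccbe1 with microglial markers (r = -0.78, adjusted permutation p = 0.0949). The r of Trpc6 with endothelial markers was then 0.74, that of Fbxo2 with medium spiny neuron markers 0.51, and those of Trpc6 and Pdpn with ependymal markers 0.60 and 0.65. By Pearson r over all 18 samples, no gene passed with oligodendrocyte precursor (r up to 0.65), fibroblast (0.59), border macrophage (0.57) or mural (0.49) markers. Nor did any with choroid plexus (0.47), monocyte or neutrophil (0.39) or oligodendrocyte (0.28) markers. By Spearman rho, Trpc6 also passed with microglial markers (rho = -0.64, adjusted permutation p = 0.0647). Pla2g5 and Trpc6 then passed with fibroblast markers (adjusted permutation p = 0.0907 for each). Fbxo2 passed with endothelial (0.0907) and ependymal (0.0948) markers, and Ccbe1 with border macrophage markers. Pdpn did not pass with pan-neuronal markers (0.162).

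With the astrocyte level, Nrsn1 had r = 0.94 (Spearman rho = 0.90, permutation p = 0.000530, adjusted p = 0.00804) and Scrg1 had r = 0.92 (rho = 0.92, permutation p = 0.000260, adjusted p = 0.00789). Pdpn had r = 0.87 (rho = 0.81, permutation p = 0.000370, adjusted p = 0.00804). Among 15925 genes compared, 66 had an r with the astrocyte level as high as Nrsn1, 105 as high as Scrg1 and 243 as high as Pdpn. Without the 2 samples farthest from the median level, Tyrobp-KO 20 and Q175 14, r was 0.89 for Nrsn1, 0.84 for Scrg1 and 0.76 for Pdpn. Without the 3 high libraries r was 0.84, 0.78 and 0.70, and the adjusted permutation p values were 0.425, 0.395 and 0.314.

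With the pan-neuronal level, Fbxo2 had r = 0.90 (rho = 0.84, permutation p = 4e-05, adjusted p = 0.00273) and Trpc6 had r = 0.89 (rho = 0.89, permutation p = 6e-05, adjusted p = 0.00273). An r as high was found for 160 and 169 of the other genes. Trpc6 also followed the medium spiny neuron markers (r = 0.77, rho = 0.74, permutation p = 0.00171, adjusted p = 0.0217), the projection neurons of the striatum, and the endothelial markers (r = 0.71, rho = 0.79, adjusted permutation p = 0.0309, and r = 0.48 without Tyrobp-KO 15 and Tyrobp-KO 20). Without the 2 farthest samples r with the pan-neuronal level was 0.78 for both. Without the 3 high libraries it was 0.74 for Fbxo2 (adjusted permutation p = 0.114) and 0.75 for Trpc6 (adjusted permutation p = 0.0728), the only 1 of the 11 relations with these levels that remained under 0.1.

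Pla2g5 had r = 0.67 with the astrocyte level (rho = 0.67, permutation p = 0.00686, adjusted p = 0.0446) and 0.59 with the fibroblast level (rho = 0.61, permutation p = 0.0213, adjusted p = 0.102). Without the 2 farthest samples the first fell to 0.47, and without the 3 high libraries to 0.36, so that it rests on those samples. The r with the fibroblast level was 0.42 without the 3 high libraries. It was 0.62 without Q175 4 and Q175;Tyrobp-KO 5, the 2 samples farthest from the median of that level. The highest r of Pla2g5 without the 3 high libraries were 0.58 with choroid plexus and 0.54 with border macrophage markers, and neither passed. With all 18 samples these were 0.32 and 0.57. The first was 0.11 without Q175 3 and Q175 4, and the second 0.30 without Q175 9 and Q175 14. In the joint fit the slope of Pla2g5 on the choroid plexus level was 0.43 ± 0.16 (SE) and was not called.

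Ccbe1 had r = -0.14 with the astrocyte level, 0.10 with the pan-neuronal level and -0.18 with the oligodendrocyte level. Its highest values were 0.52 with fibroblast (rho = 0.47, permutation p = 0.0475, adjusted p = 0.160), 0.49 with border macrophage, 0.49 with ependymal and 0.47 with choroid plexus markers. The relation with choroid plexus markers fell to 0.10 without Q175 3 and Q175 4, and so rests on those samples. That with fibroblast markers fell to 0.20 without Q175 4 and Q175;Tyrobp-KO 5. The r with ependymal markers fell to 0.20 without Q175 4 and WT 2. With border macrophage markers r was 0.57 without Q175 9 and Q175 14. Fibroblast was the highest list for Ccbe1 in 12 of the 18 fits that leave out 1 sample. The one Pearson relation of Ccbe1 with an adjusted p under 0.1 was negative, with the microglial level (r = -0.69, rho = -0.62, permutation p = 0.0184, adjusted p = 0.0983), and it was -0.58 without Q175 4 and Tyrobp-KO 20. By Spearman rho the border macrophage level also passed, with a positive sign (rho = 0.64, permutation p = 0.00801, adjusted p = 0.0561). The adjusted permutation p of rho with the microglial level was 0.0935, and Trpc6 also passed on that measure (rho = -0.64, adjusted permutation p = 0.0647). Ccbe1 also had r = -0.61 with the log2 total count, where the choroid plexus level had -0.58. The other 6 genes lay between -0.41 (Pla2g5) and -0.05 (Trpc6) on that measure, and the part of depth in the Ccbe1 values was not tested.

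**Figure D4:**
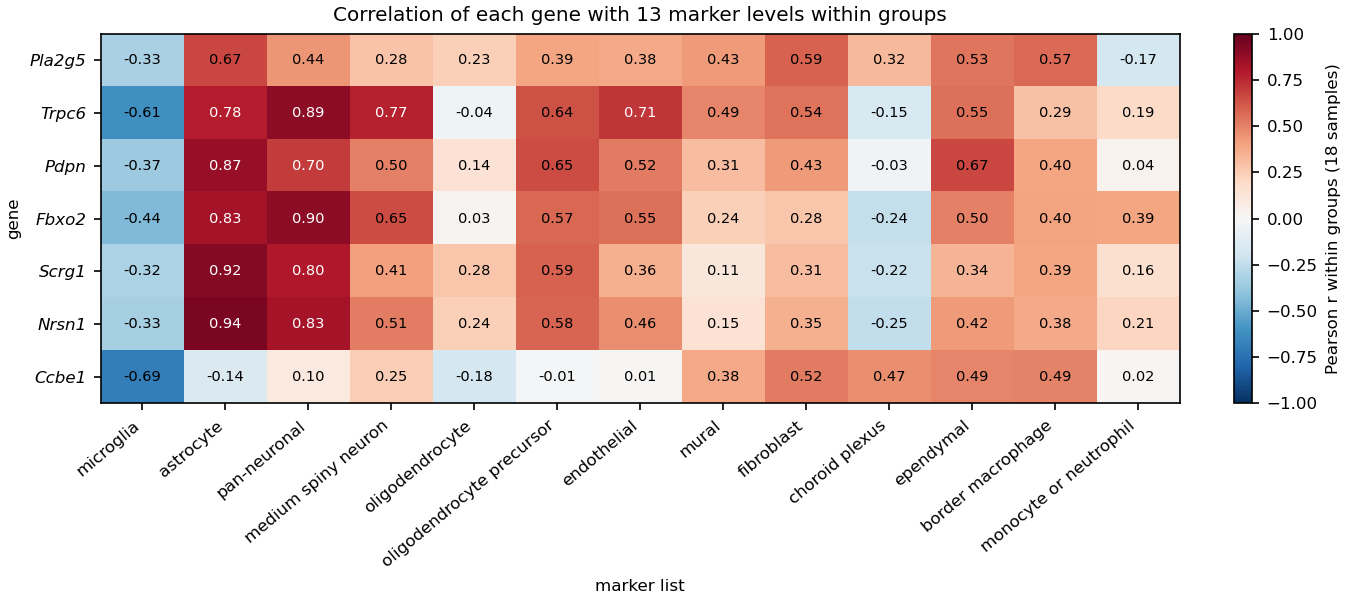
Pearson r of each gene (rows) with 13 marker levels (columns) after taking out the group mean, over 18 samples, on a color scale from -1 to 1 with the value printed. In the astrocyte and pan-neuronal columns the 6 genes other than Ccbe1 have values from 0.44 to 0.94, and the Ccbe1 row has no value over 0.52.

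The 7 genes fell into the same split when set against each other. Among Nrsn1, Scrg1, Fbxo2, Pdpn, Trpc6 and Pla2g5 the within-group r of the 15 pairs ran from 0.57 to 0.96 with a median of 0.83, with Scrg1 and Nrsn1 the closest pair. Ccbe1 had r of -0.09 to 0.14 with them. Leaving out the 3 high libraries, the 15 pairs ran from 0.17 to 0.88 with a median of 0.61, and Ccbe1 had -0.32 to 0.07. These values share the same 18 libraries and are given as a description.

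The astrocyte and neuronal markers themselves give a scale for these slopes, as least-squares slopes of log2 CPM. Each of the 15 astrocyte markers, set against the level of the other 14, had a within-group slope of 0.48 (Slc1a3) to 1.54 (Aldoc), with a median of 0.99, and an r of 0.75 to 0.98. The median slope of the 7 genes on the same scale was 1.02 and the highest, that of Nrsn1, was 1.53. The 12 neuronal markers were more mixed. Their slopes on the other 11 ran from -0.44 (Elavl4) to 1.91 (Snap25) with a median of 1.15, and Tubb3 and Elavl4 had a negative r with the rest of their list. The 7 genes had a median slope of 1.56 on the neuronal level. Those of Trpc6 (2.38) and Nrsn1 (2.14) lay above the slope of every neuronal marker.

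The protein-coding genes most like each of the 7, by within-group Pearson r over 18 samples, give a further description. Nrsn1 was nearest to Dio2 (r = 0.99), the enzyme that activates thyroid hormone, and then to Gstm1, Zdhhc2, Mt3 and Lix1 (0.97 to 0.98). Scrg1 was nearest to Rorb, a nuclear receptor (r = 0.96), then Tst, Zdhhc2, Nrsn1 itself and S100a1. Pdpn was nearest to Nxn (r = 0.94), then Ttpa, which binds vitamin E, Chchd10, Kbtbd11 and Nkain4.

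Trpc6 was nearest to Gabra4, a GABA-A receptor subunit (r = 0.97), then Smarca1, Fam163b, Stard10 and the channel gene Ano3. Fbxo2 was nearest to Pcsk1n, an inhibitor of a prohormone convertase (r = 0.98), then Diras2, Mt3, Cdk5r2 and Ppp1r3c. Pla2g5 had lower values, with Cdr2 (r = 0.84) and Metrn, which acts in glia and neurite growth, then Acaa2, Srxn1 and Catspere2 (0.79). Ccbe1 was nearest to Ttc26 (r = 0.81) and Dnah9, both genes of cilia, then Pcdhgc4, Plxna1 and Eln (0.73), which encodes elastin. None of these genes is in a marker list.

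Relatives and partners of the 7 proteins were listed as 41 genes. In Q175 against WT edgeR called none of the 32 tested (background 0%), 12 were higher and their median log2 fold change was -0.09. DESeq2, which called 1.28% of all genes there, called 2, Pla2g7 (1.27, adjusted p = 0.0772) and Ezr (1.30, adjusted p = 0.0682). In Q175;Tyrobp-KO against Tyrobp-KO edgeR called none of 28. DESeq2 called 4.65% of all genes there, and among the partners Cd44 (-0.96, adjusted p = 0.0056) and Cd9 (-0.60, adjusted p = 0.0478), membrane proteins that bind podoplanin. It gave several of the 28 no adjusted p, among them Trpc5, Trpc7 and Clec1b, and these calls are not read as a result about podoplanin partners.

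Of the 13 phospholipase A2 relatives of Pla2g5, 7 passed the filter. The highest per kb of exon were Pla2g15, the lysosomal form (median 1402 normalized counts per kb over 18 samples), and Pla2g4a, a cytosolic form (237), with log2 fold changes of -0.23 and -0.10 in Q175 against WT. Pla2g7, which inactivates platelet-activating factor, was the only one with a called slope on the astrocyte level (1.08 ± 0.12, adjusted p = 1.04e-05, edgeR), and it also had one on the pan-neuronal level (1.40 ± 0.26, adjusted p = 0.000973). Those of Pla2g5 were 1.15 ± 0.39 and 1.21 ± 0.63, of which the second was not called. The secreted forms Pla2g1b, Pla2g2c, Pla2g2d, Pla2g2e, Pla2g2f and Pla2g10 did not pass the filter.

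Of the 6 TRPC channels beside Trpc6, 5 were tested and none was called by genotype. Trpc1 (0.68 ± 0.17), Trpc5 (1.15 ± 0.43) and Trpc7 (1.41 ± 0.40) had called slopes on the pan-neuronal level, with adjusted p values (edgeR) of 0.0103, 0.0635 and 0.0202. None had one on the astrocyte level. Their log2 fold changes in Q175 against WT lay between -0.35 (Trpc4) and 0.70 (Trpc5), where that of Trpc6 was 2.24.

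Of the podoplanin partners 7 of 8 were tested. Ezr, the ERM protein ezrin that links podoplanin to actin, had a called slope on the astrocyte level (0.69 ± 0.11, adjusted p = 0.00045, edgeR) and on the pan-neuronal level (0.61 ± 0.25, adjusted p = 0.0929). Msn, the related moesin, had a called negative slope on the pan-neuronal level (-0.51 ± 0.17, adjusted p = 0.0398). Clec1b, which encodes the receptor CLEC-2, had a median of 29.1 normalized counts and no called slope.

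Among the SCF subunits and F-box relatives of Fbxo2, all 7 were tested, and Skp1a, Fbxo27 and Fbxo44 had called slopes on the pan-neuronal level (0.63, 0.72 and 0.64). The neurensin relative Nrsn2 also had one (1.36 ± 0.30, adjusted p = 0.0044, edgeR), at a median of 13.1 normalized counts per kb. Bst1, the receptor of Scrg1, did not reach the filter. Of the 5 partners of Ccbe1 in VEGF-C processing, Adamts3, the protease that cleaves VEGF-C, had a called slope on the pan-neuronal level (1.10 ± 0.39, adjusted p = 0.0493), and Vegfc, Vegfd, Flt4 and Adamts14 had none. Over all 32 partners tested, 2 had a called positive slope on the astrocyte level and 10 on the pan-neuronal level, beside 7.32% and 16.3% of all genes, and 3 (Msn, Pla2g15 and Lgals8) had a called negative slope on the pan-neuronal level. Over the 15 samples without the high libraries Pla2g7 (0.80 ± 0.19, adjusted p = 0.0837, edgeR) and Ezr (0.88 ± 0.17, adjusted p = 0.0266) had called slopes on the astrocyte level, and 0 of 30 partners on the pan-neuronal level.

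With marker levels as terms in 1 fit over all 18 samples, the Q175 against WT values of the 7 genes moved apart. With the astrocyte level as a term the log2 fold changes of Nrsn1, Trpc6, Fbxo2, Scrg1 and Pdpn were 0.08, 0.04, 0.18, 0.42 and 0.62, Pla2g5 was at 1.46 and Ccbe1 at 4.53. With the pan-neuronal level they were 1.13, 0.82, 0.76, 1.28 and 1.32, 2.38 and 4.16. With all 4 levels Pla2g5 was at -0.14 and Ccbe1 at 3.56, and the other 5 were between 0.15 and 0.39. With sex as a term, in the 10 WT and Q175 samples alone, they were 1.06 to 1.94, and 3.56 for Ccbe1. The levels differ between the genotypes, so the part of a difference that belongs to the genotype and the part that moves with the level cannot be told apart in these fits.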

How the data were processed

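The authors aligned reads to the mouse genome GRCm38 with STAR and counted them with featureCounts on a gene model that the methods call UCSC; the labels list a human build, while all 55536 identifiers are in GENCODE M21. The deposited values are raw counts per Ensembl gene, made by the authors with no normalization (SMART-Seq v4 amplification; the methods describe non-directional libraries). Total counts were 11260410 to 29771983 per sample, and 2 columns without a labelled sample were not used.

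The 7 genes, the 13 marker lists (132 genes) and the 41 partner genes were chosen with earlier results of these data known. Groups came from the sample titles. Counts were scaled with TMM in edgeR 4.0.16 (R 4.3.3). A gene entered a fit if any of its samples reached 1 CPM. The test was the quasi-likelihood F test of edgeR, at a Benjamini-Hochberg FDR of 0.1 over all genes, on the samples of the 2 groups, or for slopes on all 18 samples with group as a term. Log2 CPM had a prior count of 2. SE are the log2 value divided by the root of F. Genes named as most like a member are the 5 protein-coding genes with the highest within-group r. Other genes named are members of the fixed lists. Scripts were tested on simulated data. Alternatives were DESeq2 1.42.0, other scalings, filters, prior count, median of markers, sex or marker levels as terms, an FDR of 0.05, all 4 groups in 1 fit, and leaving out each sample. Leaving out the 3 high libraries, or Tyrobp-KO 20 and Q175;Tyrobp-KO 5, together and putting all 4 levels in as terms were chosen after seeing the data. The methods describe striata dissociated mouse by mouse and 1 striatum per sample, the labels 2 striata, and neither ties each sample to a mouse, so p-values measure the spread between samples, which may be partly technical.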

Additional observations from a re-analysis of the deposited data

Results flagged for a closer look

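In groups of 5, the sample farthest from the rest was compared with the whole range of its group (Dixon's ratio, 95% level), for the 7 genes and 4 marker levels. Of 33 such groups 9 had an outlying sample, where the rule flags about 1 in 20 independent groups by chance. The genes and levels were measured in the same libraries and most of them move together. The 9 are therefore not independent, and their number cannot be set against that rate. Q175 14 stood apart from the other Q175 samples with 233 normalized counts of Trpc6, 785 of Fbxo2, 438 of Scrg1 and 3455 of Nrsn1, and with an astrocyte level of 2467 and a pan-neuronal level of 1162. Q175 4 stood apart for Ccbe1, with 55.9 normalized counts. Q175 17 stood apart for the oligodendrocyte level, at 6891, and Q175;Tyrobp-KO 11 for the choroid plexus level among the Q175;Tyrobp-KO samples, at 87.8. The 3 Tyrobp-KO samples are too few for this rule, so Tyrobp-KO 20 could not be assessed.

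Trpc6 and Ccbe1 had values on opposite sides in the contrasts with and without Tyrobp, although neither was called in the second: every Q175 sample lay above the WT mean and every Q175;Tyrobp-KO sample lay below the Tyrobp-KO mean, with log2 fold changes of -1.26 for Trpc6 and -2.29 for Ccbe1 in the second contrast. The Q175 against WT side of this is fixed by the selection of the genes, so nothing is read from it. Pdpn, Fbxo2, Scrg1 and Nrsn1 were also negative in the second contrast, so the sign is not particular to Trpc6 and Ccbe1. Ccbe1 entered that fit only through Tyrobp-KO 15. The differences between contrasts were not tested. The Tyrobp-KO mean of Trpc6 (89.2 normalized counts) is set by Tyrobp-KO 20, at 240.0 where the other 2 were at 3.34 and 24.1, and without it the log2 fold change was 1.43. That of Ccbe1 (12.2) is raised by Tyrobp-KO 15 at 23.4, and Tyrobp-KO 19 (3.45) lies below Q175;Tyrobp-KO 5 (4.47).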

How the results depend on the processing

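No paired analysis was possible because the groups share no replicate number. With DESeq2, 680 genes were called in Q175;Tyrobp-KO against Tyrobp-KO, and 234 genes and 2 partner genes in Q175 against WT, where edgeR called none; edgeR called none of the 7 genes in the first contrast under any alternative run. The median log2 fold change of the 7 genes in Q175 against WT was 0.42 with the astrocyte level as a term, 1.28 with the pan-neuronal level and 0.28 with all 4 levels, where Pla2g5 was at -0.14. Without the 3 high libraries the called positive slopes on the astrocyte level fell to 1 of the 7 genes and 178 genes in all, and on the pan-neuronal level to 0 and 305, and the relations with an adjusted p under 0.1 fell to 3, with 0 genes on the astrocyte and 1 on the pan-neuronal level. The slope of Pla2g5 on the pan-neuronal level was then -0.88 and its r -0.25, and the r of Ccbe1 was -0.00196. With sex as a term 843 genes were called on the astrocyte level, and Scrg1 in Q175;Tyrobp-KO against Q175 was at 0.013. With all 4 levels in 1 fit the called slopes were 3 of the 7 genes and 2246 genes on the astrocyte level, 277 genes on the oligodendrocyte level and 64 on the choroid plexus level. With both changes, 1 of the 7 genes was called on the astrocyte level and 3 on the pan-neuronal level (1318 genes), where Pla2g5 was at -0.69 and Ccbe1 at 2.73.

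In Q175;Tyrobp-KO against Tyrobp-KO, Pdpn was at 0.079 with the astrocyte and 0.028 with the pan-neuronal level as a term, and Fbxo2 at 0.0029 with the latter. Without Tyrobp-KO 20 and Q175;Tyrobp-KO 5 together, Trpc6, Pdpn, Fbxo2, Scrg1 and Nrsn1 were at 1.003, 0.45, 0.48, 0.48 and 0.71. The Ccbe1 slope on the pan-neuronal level was 0.063 with DESeq2, 0.15 with its size factors, 0.20 with the median of markers and 2.87 with all 4 levels, so its sign was not settled.

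Leaving out 1 sample at a time gave ranges of -1.83 to 1.43 for Trpc6, -0.81 to 0.81 for Pdpn, -0.80 to 0.75 for Fbxo2, -1.19 to 1.02 for Scrg1 and -1.20 to 1.19 for Nrsn1 in that contrast, with the positive values without Tyrobp-KO 20. In Tyrobp-KO against WT the median was 0.83 to 2.97 and Trpc6 -0.32 to 2.94. In Q175;Tyrobp-KO against Q175, Fbxo2 was -0.70 to 0.15, Scrg1 -1.07 to 0.34 and Nrsn1 -1.02 to 0.50. Genes with a called positive slope numbered 902 to 1666 on the astrocyte, 1584 to 3557 on the pan-neuronal, 89 to 169 on the oligodendrocyte and 18 to 37 on the choroid plexus level, with the lowest values without Tyrobp-KO 20 (the first 2), Q175 17 and Q175 4. The slopes of Ccbe1 were -0.52 to 0.0030 on the astrocyte and -0.34 to 0.53 on the pan-neuronal level, and its r with the astrocyte level was -0.26 to 0.052. The relations with an adjusted p under 0.1 numbered 12 to 36, the most without Q175 4. The cause of these shifts was not tested. Counts of 0 to 35 per library limit what Pla2g5 and Ccbe1 can show.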
